A study of Mus musculus with 7 samples.

Results

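The 10 genes described here belong to the machinery that holds Hedgehog signalling back inside the cell, and were measured in sorted granule neuron precursors of the mouse cerebellum. They are 10 of the 18193 genes named on the array. They encode the catalytic subunits of protein kinase A (Prkaca, Prkacb), 2 of its regulatory subunits (Prkar1a, Prkar2b), the stimulatory G protein alpha subunit (Gnas), the ciliary receptor Gpr161, the PACAP receptor Adcyap1r1, and the kinases Gsk3b, Csnk1a1 and Csnk1e. All probe sets that the platform annotation assigns to exactly 1 of these 10 genes were taken, which gave 35 of the 45037 probe sets that are not controls. A probe set was tested if it reached the median signal of its array on at least 3 of the 7 arrays, and 28 of the 35 did so, with at least 1 for every gene. The other 7 were too dim to be tested.

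The cells came from mice of the genotype Math1-Cre/Ptc-loxp/Nestin-CFP, shared by all 7 samples. By this genotype Math1-Cre, which acts in the granule neuron lineage, recombines a floxed allele of Ptch1, the receptor that keeps the Hedgehog transducer Smo inactive. The Nestin-negative fraction carries the same alleles, and no sample with intact Ptch1 is compared here. A CFP reporter driven by Nestin regulatory sequence served to sort them into a Nestin-positive fraction (4 arrays, replicates 1, 3, 4 and 5) and a Nestin-negative fraction (3 arrays, replicates 1, 4 and 5), without culture or treatment. The sample labels give postnatal day 7 and call the tissue medulloblastoma, while the series text gives postnatal day 4. Nothing says that the samples came from separate animals, so p-values measure the spread between these samples, which may be technical, and the number of arrays limits the precision.

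In a cell without Hedgehog ligand, Gpr161 in the primary cilium couples to the stimulatory G protein, adenylyl cyclases make cyclic AMP (cAMP), and cAMP frees the catalytic subunits of protein kinase A (PKA) from the regulatory subunits. PKA phosphorylates the Gli transcription factors, GSK3 beta and casein kinase 1 add further phosphates to the primed sites, and a ubiquitin ligase then has the Gli proteins trimmed to repressors or destroyed. In granule neuron precursors PACAP, acting through the receptor encoded by Adcyap1r1, is known to raise cAMP and to oppose the mitogenic action of Sonic hedgehog. The question the design allows is whether transcripts of these brakes differ between the Nestin-positive and the Nestin-negative fraction of cells that the series labels Ptch1-deficient.

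PKA also acts on transcription, through factors of the CREB family that bind the cAMP response element TGACGTCA or a shorter core, read as TGACG along the gene or, on the opposite strand, as CGTCA. Promoter windows from RefSeq (build GRCm38.p6), running from 250 bases before to 50 bases after an annotated start, were held for 9 of the 10 genes, with 25 windows in all; windows of 1 gene can overlap, and Csnk1a1 had none. The full element was present in 2 of the 25 windows, both of Prkar1a, against 1.79% of the 32851 windows of all genes. The shorter core, which the full element contains, was present in 10 of the 25 windows, belonging to Prkaca, Prkacb, Prkar1a, Gnas and Csnk1e, against 20.8% of all windows. To show where the letters lie, the match nearest upstream of a start is given for each of these genes within 30 bases, 5′ to 3′ along the gene, with the searched letters in capitals.
Prkar1a, chr11:109650889-109650918, plus strand: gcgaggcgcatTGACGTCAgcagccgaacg
Prkaca, chr8:83972948-83972977, plus strand: ccaatgggcggtgggctgcgggggCGTCAc
Prkacb, chr3:146813031-146813060, minus strand: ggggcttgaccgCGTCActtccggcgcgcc
Gnas, chr2:174327699-174327728, plus strand: aagaggttggggCGTCAtcaggctggttag
Csnk1e, chr15:79442198-79442227, minus strand: ccagggtggcagCGTCAgaacacgctctcc

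A match of letters is a description of the sequence, and binding was not measured. Neither motif was found in the windows of Prkar2b, Gpr161, Adcyap1r1 and Gsk3b.

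The sort itself was visible in Nes, which encodes Nestin and was 3.32-fold higher in the Nestin-positive fraction (log2 change 1.73 ± 0.21 SE, limma, adjusted p = 0.0282); since Nestin defined the fractions, this checks the labels only. The tested probe set of Ptch1 gave 13180, 12780, 12999 and 12827 in Nestin-positive and 11511, 11606 and 10588 in Nestin-negative cells. Whether it lies in the deleted part was not analysed here, so it does not check the deletion. All 8 listed granule neuron precursor markers, Atoh1, Barhl1, Zic1 and Pax6 among them, lay at or above the array median on all 7 arrays. Array medians ran from 64.6 to 94.7 at a common trimmed mean of 500, and both replicate 1 arrays had the highest medians (94.0 and 94.7).

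None of the 10 brake genes passed the test of a difference between the fractions. Each gene was represented by its brightest probe set and tested with limma on log2 signal over all 11081 genes, with Benjamini-Hochberg adjustment and a threshold of 0.05. Limma called 0 of the 10, also 0 at an unadjusted p under 0.05, where 0.749% of all genes were called (0.171% higher and 0.578% lower in the Nestin-positive fraction) and 14.4% had an unadjusted p under 0.05. Their log2 changes lay between -0.25 and 0.05, with a median of -0.07, against -0.03 for all genes tested, and adjusted p-values lay between 0.542 and 0.999. Of the changes, 8 were negative and 2 positive, where 54.5% of all genes were negative. The 2 fractions overlapped for all 10 genes, and 15.0% of all genes had non-overlapping groups. With only 10 genes, counts of 0 beside these shares do not set them apart from all genes.

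Replicate numbers 1, 4 and 5 occur in both fractions, and same-numbered arrays deviated from their group means together, so a fit of the 3 pairs with the replicate number as a block was read beside the first. It called 10.1% of all genes (3.60% higher and 6.52% lower) and 0 of the 10 (0 at an unadjusted p under 0.05, which 22.2% of all genes reached). So small a set cannot show here either that the 10 differ from all genes. Adjusted p-values of the 10 were 0.320 to 0.993. Over the brightest probe sets of the 10 genes, the 95% intervals of the blocked fit reached from -0.50 to 0.26 on the log2 scale. That is at most 1.41-fold lower (Adcyap1r1) and 1.20-fold higher (Gpr161) in the Nestin-positive fraction. Without the block the intervals of these probe sets reached from -0.82 to 0.73, both ends from Adcyap1r1. Intervals of dimmer tested probe sets reached further with the block, to -0.94 (Prkar1a, 1447635_at) and 1.20 (Gnas, 1443375_at) on the log2 scale. That of Gsk3b 1434439_at, -0.74 to -0.07, left out 0.

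**Figure D1:**
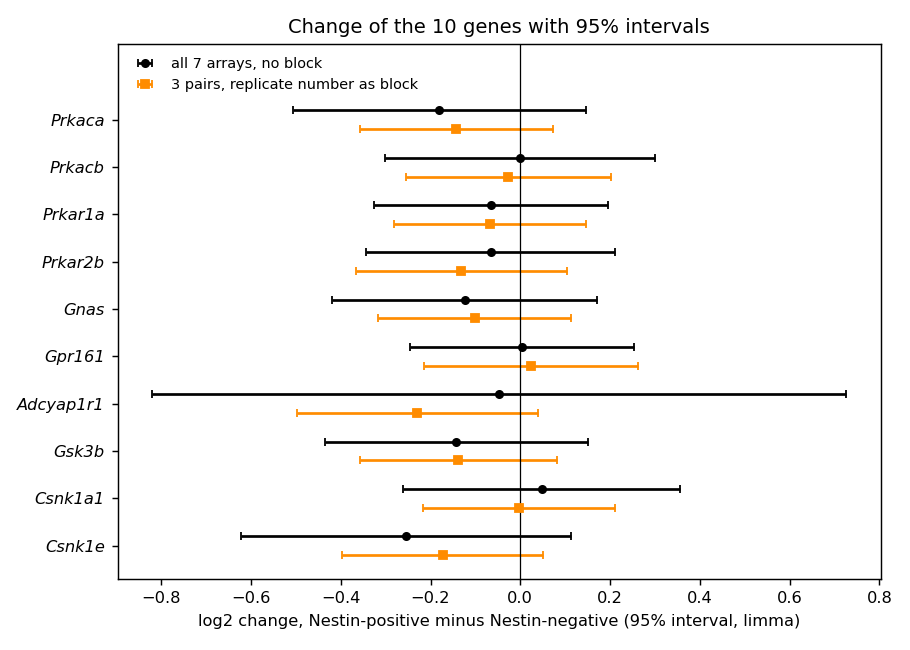
Log2 change (Nestin-positive minus Nestin-negative) of the brightest probe set of each of the 10 genes, with 95% intervals from limma. Circles are all 7 arrays without a block, and squares are the 3 pairs with the replicate number as a block. Every interval of both fits includes 0, and Adcyap1r1 has by far the widest interval without the block, -0.82 to 0.73.

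Prkaca encodes the alpha catalytic subunit of PKA, the kinase that starts the phosphorylation of Gli proteins. Its brighter probe set (1447720_x_at) gave 3030, 3148, 3452 and 4107 on Nestin-positive replicates 1, 3, 4 and 5, and 3242, 4360 and 4088 on Nestin-negative replicates 1, 4 and 5. Replicate 1 was the lowest in both fractions, and the fractions overlapped. Means were 3434 ± 483 (SD, n = 4) and 3896 ± 583 (SD, n = 3), a log2 change of -0.18 ± 0.15 (SE; limma, adjusted p = 0.636; -0.14 ± 0.10 and adjusted p = 0.475 with the block). The dimmer probe set had 487 ± 132 (SD, n = 4) and 633 ± 160 (SD, n = 3), a log2 change of -0.38 ± 0.24 (SE; limma, adjusted p = 0.632 over 20144 probe sets). Both probe sets were thus lower on average and neither passed. The suffix x marks probes that can cross-hybridise with similar transcripts.

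Prkacb encodes the beta catalytic subunit. Its main probe set (1420611_at) gave 2149, 2173, 1878 and 2047 in the Nestin-positive fraction and 2448, 2046 and 1745 in the Nestin-negative fraction. The Nestin-negative arrays held both the highest and the lowest value, so that the means were nearly equal, 2062 ± 134 (SD, n = 4) and 2079 ± 353 (SD, n = 3), and the 95% interval of the log2 change ran from -0.30 to 0.30. A second, dim probe set had 97.5 ± 19.8 (SD, n = 4) and 82.8 ± 26.2 (SD, n = 3) and reached the array median on 4 of 7 arrays. The last was too dim to be tested, at 21.3 to 145 in Nestin-positive and 27.6 to 229 in Nestin-negative cells, and exceeded the array median on both replicate 1 arrays alone.

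Prkar1a encodes the type I alpha regulatory subunit, which inhibits the catalytic subunits until cAMP binds. Its brightest probe set (1452032_at) gave 5404, 5219, 4828 and 5342 in Nestin-positive cells and 6334, 5192 and 4879 in Nestin-negative cells. Replicate 1 was highest in both fractions, and the other arrays lay within 4828 to 5342. The log2 change was -0.07 ± 0.12 (SE; limma, adjusted p = 0.845). A second probe set moved the other way across replicates: its replicate 1 arrays, 1684 and 1769, were the lowest of the 7, and its log2 change was -0.06 ± 0.14 (SE). The dimmest tested one had 67.9 ± 13.3 (SD, n = 4) and 83.4 ± 2.07 (SD, n = 3).

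Prkar2b encodes the type II beta regulatory subunit, which is anchored to membranes and the cytoskeleton by A-kinase anchoring proteins. Its brightest probe set (1456475_s_at) gave 902, 1147, 937 and 1031 in Nestin-positive cells and 1026, 1085 and 1030 in Nestin-negative cells. The highest and the lowest of the 7 values were both Nestin-positive, and the log2 change was -0.07 ± 0.12 (SE; limma, adjusted p = 0.854). The others gave log2 changes of 0.11 ± 0.15 and 0.08 ± 0.16 (SE), so that the sign differed between probe sets of this gene, all within their errors.

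Gnas encodes the stimulatory G protein alpha subunit from a complex imprinted locus with several overlapping transcripts, and which of them each probe set reads was not analysed here. Its bright probe set (1450186_s_at) gave 10091, 11510, 14278 and 12679 in Nestin-positive cells and 11835, 13266 and 14385 in Nestin-negative cells. Replicate 1 was the lowest in each fraction, and the fractions overlapped over most of their range. Means were 12140 ± 1776 (SD, n = 4) and 13160 ± 1278 (SD, n = 3), with a log2 change of -0.12 ± 0.13 (SE; limma, adjusted p = 0.727). Of 4 dimmer probe sets, 2 never reached the array median.

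Gpr161 encodes the cilium-resident receptor that keeps PKA active when Smo is off. Its tested probe set (1436459_at) gave 922, 922, 1023 and 974 in Nestin-positive cells and 995, 906 and 972 in Nestin-negative cells. All 7 values thus fell between 906 and 1023, and the means were 960 ± 48.7 (SD, n = 4) and 958 ± 45.9 (SD, n = 3). The log2 change was 0.00 ± 0.11 (SE; limma, adjusted p = 0.993), with a 95% interval from -0.25 to 0.25, or -0.22 to 0.26 with the block. Its second probe set, at 11.6 to 34.4, never reached the array median.

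Adcyap1r1 encodes PAC1, the receptor for PACAP, and had the widest standard error of the 10 without the block. Its tested probe set (1429022_at) gave 346, 804, 709 and 465 in Nestin-positive cells and 368, 905 and 551 in Nestin-negative cells. Replicate 1 was low and replicate 4 was high among the numbers shared by both fractions, and in each of the 3 pairs the Nestin-positive value was the lower one, by 0.09, 0.35 and 0.25 on the log2 scale in replicates 1, 4 and 5. All pairs were lower for 23.0% of all genes. Without the block the log2 change was -0.05 ± 0.35 (SE; limma, adjusted p = 0.971), and with it -0.23 ± 0.13 (SE, adjusted p = 0.320). The direction without the block rested on single arrays: leaving out Nestin-negative replicate 4 gave 0.29 and Nestin-negative replicate 1 gave -0.36, while the Nestin-positive fraction without its replicate 1 gave 0.18 and without its replicate 5 gave 0.03. The 2 dimmer probe sets of this gene were not tested.

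**Figure D2:**
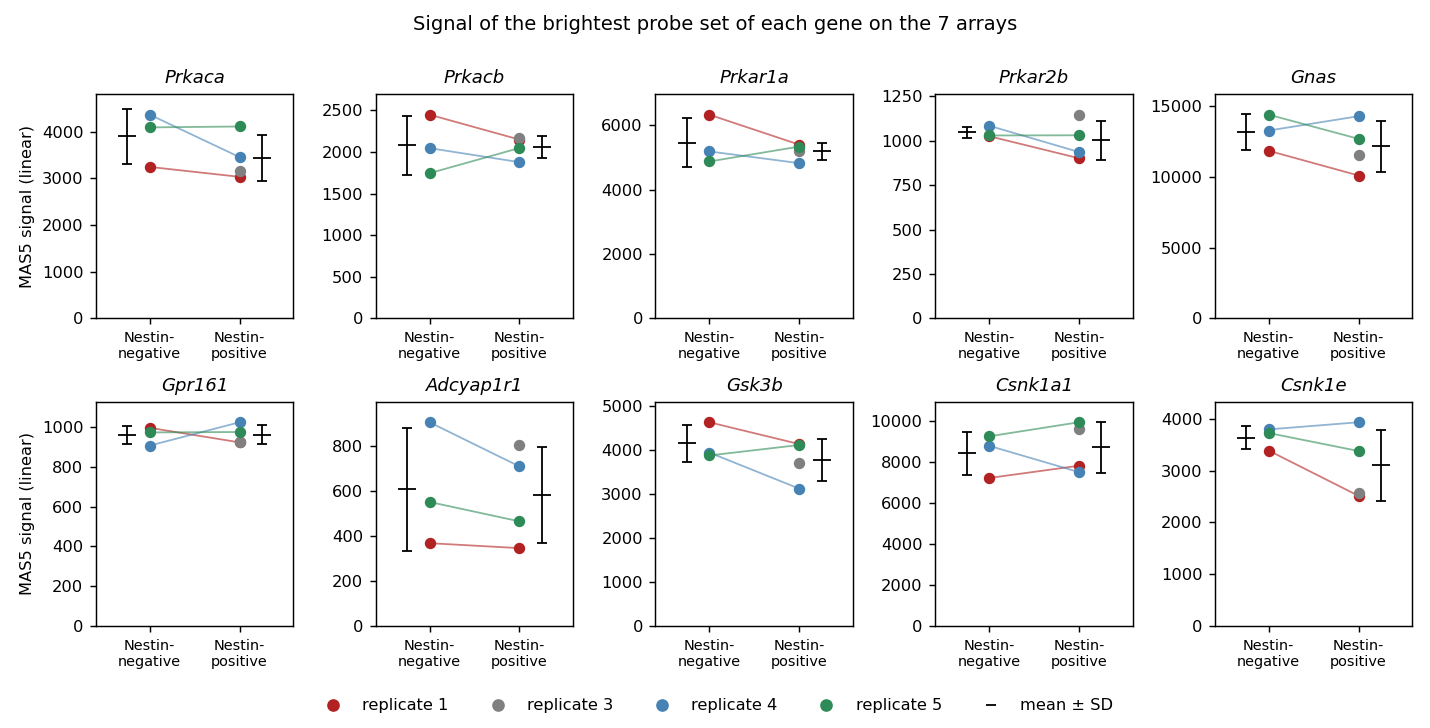
MAS5 signal on a linear axis from 0 for the brightest probe set of each of the 10 genes, with 1 point per array coloured by replicate number, lines joining same-numbered arrays, and bars for mean ± SD (n = 3 Nestin-negative, n = 4 Nestin-positive). The fractions overlap in every panel, and in the Adcyap1r1 panel all 3 lines fall from the Nestin-negative to the Nestin-positive side.

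Gsk3b encodes GSK3 beta, which phosphorylates Gli proteins after PKA has primed them and also marks beta-catenin and MYCN for destruction. All 6 of its probe sets were tested. The brightest (1437001_at) gave 4143, 3716, 3129 and 4121 in Nestin-positive cells and 4639, 3950 and 3883 in Nestin-negative cells, overlapping, with a log2 change of -0.14 ± 0.13 (SE; limma, adjusted p = 0.682). The next (1454958_at) gave 2696, 2550, 2900 and 2742 against 3052, 3001 and 3046, and here all Nestin-positive arrays were below all Nestin-negative arrays. So were those of the dimmest (1434439_at), with 241, 279, 305 and 313 against 384, 355 and 392.

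These were the only 2 of the 28 tested probe sets of the 10 genes with non-overlapping fractions, where 12.4% of all 20144 tested probe sets had them (7.25% in this direction). Their log2 changes were -0.16 ± 0.09 and -0.41 ± 0.15 (SE; limma, adjusted p = 0.609 and adjusted p = 0.361 over all probe sets; 0.587 and 0.189 with the block). The latter had the lowest unadjusted p of the 28 and was the 1 probe set of them under 0.05 in either fit. Limma without the block called 0 of the 20144 probe sets at the adjusted threshold (2232 at an unadjusted p under 0.05), and with the block 4.93%. Another bright probe set (1451020_at) had a log2 change of -0.13 ± 0.11 (SE) with overlapping fractions.

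Csnk1a1 encodes casein kinase 1 alpha, which adds phosphates to primed Gli proteins and to beta-catenin. Its brightest probe set (1424827_a_at) gave 7821, 9613, 7511 and 9942 in Nestin-positive cells and 7222, 8794 and 9255 in Nestin-negative cells. The fractions overlapped almost fully, with a log2 change of 0.05 ± 0.14 (SE; limma, adjusted p = 0.909; 0.00 ± 0.10 with the block). The next probe set, at 5369 ± 299 (SD, n = 4) and 5535 ± 408 (SD, n = 3), had -0.04 ± 0.10 (SE).

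Csnk1e encodes casein kinase 1 epsilon, known from the Gli, Wnt and circadian pathways, and had the largest change of the 10 without the block. Its representing probe set (1417176_at) gave 2512, 2574, 3932 and 3377 in Nestin-positive cells and 3385, 3794 and 3724 in Nestin-negative cells. Nestin-positive replicates 1 and 3 were low and replicate 4 was the highest of all, so that the low mean came from those arrays. Means were 3099 ± 681 (SD, n = 4) and 3634 ± 219 (SD, n = 3), with a log2 change of -0.25 ± 0.16 (SE; limma, adjusted p = 0.542; -0.17 ± 0.11 and adjusted p = 0.388 with the block). A second bright probe set had -0.17 ± 0.18 (SE), and a dim one 0.01 ± 0.28 (SE).

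Some probe sets of the 10 genes differed far more between replicates than between fractions. For 9 of the 28 tested probe sets, belonging to Prkacb, Prkar1a, Gnas, Gsk3b and Csnk1a1, both replicate 1 arrays were above all other 5 arrays, a pattern held by 15.2% of all tested probe sets. Both were below the other 5 for 3 of the 28, where 13.7% of all were. Its largest ratios were in secondary probe sets. One of Gsk3b (1439949_at) gave 1147, 543, 197 and 208 in Nestin-positive and 1020, 256 and 221 in Nestin-negative cells, so that replicate 1 was 5.66-fold and 4.29-fold above the geometric mean of replicates 4 and 5 in these fractions.

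Another probe set of Gsk3b (1439931_at) gave 916, 437, 176 and 216 against 779, 187 and 241, which was 4.70-fold and 3.66-fold. In Gnas, one (1453413_at) gave 474, 139, 95.9 and 112 against 364, 116 and 115, with ratios of 4.57 and 3.14. A further one of Gnas reached 272 and 340 on the replicate 1 arrays and 25.6 to 61.8 on those of replicates 4 and 5, where it lay below the array median. In Csnk1a1, one (1437923_at) gave 1715, 1492, 508 and 720 against 1638, 628 and 461. Nestin-positive replicate 3, which has no partner, lay between replicate 1 and the rest for both of these Gsk3b probe sets.

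The brightest probe sets of the same genes moved less and not all the same way. That of Gsk3b was 1.15-fold and 1.18-fold, and that of Prkar1a 1.06-fold and 1.26-fold, above replicates 4 and 5. On the replicate 1 arrays the brightest of Gnas had 0.750 and 0.857, and that of Csnk1a1 0.905 and 0.801, of the geometric mean of replicates 4 and 5 in the Nestin-positive and Nestin-negative fraction. Under the blocked fit the standard error of the steepest Gsk3b probe set went from 0.72 to 0.15 on the log2 scale and that of the Gnas one at 474 from 0.61 to 0.21, and their changes between the fractions were -0.10 and 0.02. Actin 3′ to 5′ signal ratios, a measure of RNA quality, were 1.80 and 1.99 on the replicate 1 arrays and 1.68 to 1.90 on the others. Gapdh ratios were 1.09 and 1.15 on the replicate 1 arrays and 1.25 to 1.38 on the others. Their part in the pattern was not tested.

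**Figure D3:**
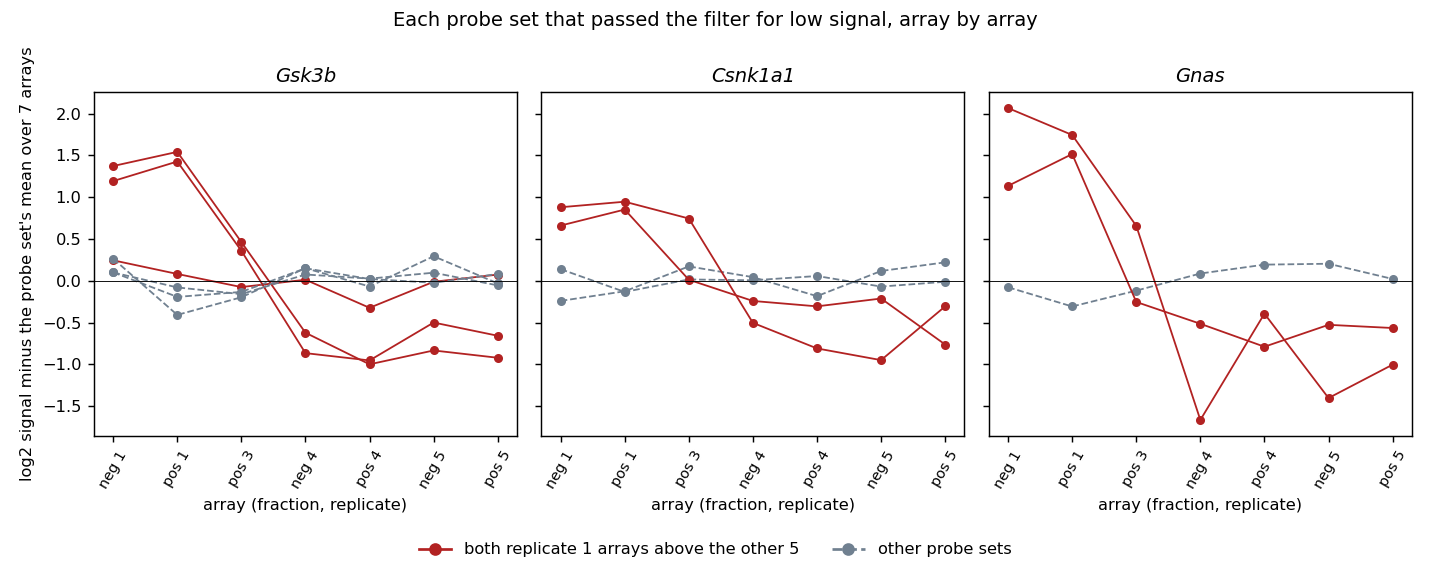
Log2 signal of each tested probe set of Gsk3b, Csnk1a1 and Gnas on the 7 arrays, relative to that probe set's mean over the arrays; neg and pos are the Nestin-negative and Nestin-positive fractions with their replicate number, and lines only join values of 1 probe set. Solid lines mark probe sets with both replicate 1 arrays above the other 5, and in those both fractions of replicate 1 are raised. The widest departures from 0 are on solid lines. In Gsk3b the dashed line of 1434439_at departs farther from 0 than the solid line of 1437001_at.

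Genes that act around these brakes did include calls. Of 107 tested genes in 11 pathway lists, limma called 3 without the block, Adcy1 and Akap12 lower and Hhip higher, and 22 with the block, 7 higher and 15 lower. That is 20.6% of the listed genes, beside 10.1% of all genes (3.60% higher and 6.52% lower). The median log2 change of the listed genes with the block was -0.03, against -0.01 for all genes. Whether this share differs from that of the 10 genes was not tested. The lists were chosen with earlier results of these data known, so their share of calls is a description only. Without pair 1, 12 of the 22 remained past the threshold, without pair 4 20 and without pair 5 17. When probe sets of a gene were averaged and the block was kept, calls were lost for Prkar1b (limma, adjusted p = 0.207), Prkx (0.275), Adcy5 (0.0945), Gnai1 (0.0768), Gnao1 (0.129), Pde10a (0.0643), Apc (0.952), Tulp3 (0.434) and Wdr35 (0.158). Quantile normalization with the block lost Prkx (0.0858), Pde4d (0.0575), Pde10a (0.0993) and Wdr35 (0.0601).

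Of 7 adenylyl cyclases, the enzymes that make the cAMP for PKA, 3 fell with the block and none rose. Adcy1, the calcium-stimulated cyclase of neurons, gave 590, 429, 501 and 592 in Nestin-positive cells and 1337, 992 and 880 in Nestin-negative cells, and all Nestin-positive arrays were below all others. It fell by 1.01 ± 0.18 (SE) on the log2 scale (limma, adjusted p = 0.0403, and 6.8e-05 with the block), although its unblocked adjusted p was 0.0623 to 0.157 with any 1 array left out. Adcy7 fell with the block (-0.53 ± 0.13 SE, adjusted p = 0.0091), as did Adcy5 (-0.66 ± 0.18 SE, adjusted p = 0.0189; 0.0684 without pair 1 and 0.103 without pair 5).

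Among the other PKA genes, 2 of 6 fell with the block. Prkar1b, the neuronal type I beta regulatory subunit, gave 156, 150, 226 and 170 against 268, 337 and 320 (-0.76 ± 0.17 SE with the block, adjusted p = 0.0056). Its 3 other tested probe sets had smaller changes, -0.15 to -0.41 with the block. Prkx, a kinase related to the catalytic subunits, had -0.36 ± 0.11 (SE, adjusted p = 0.0494; 0.507 without pair 1 and 0.0518 without pair 5). Other tested probe sets of Prkx had -0.35 ± 0.11 and -0.002 ± 0.21 (SE) with the block. Of 12 phosphodiesterases, which break down cyclic nucleotides, 4 fell with the block: Pde1b (-0.72 ± 0.16 SE, adjusted p = 0.0054), Pde2a (-0.60 ± 0.13), Pde4d (-0.51 ± 0.14; adjusted p = 0.228 without pair 1 and 0.0644 without pair 4) and Pde10a (-0.76 ± 0.23; 0.0557 to 0.123 with any pair left out). Other tested probe sets of Pde2a had -0.88 ± 0.22 and -0.05 ± 0.19 (SE) with the block.

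Of 15 genes of G proteins, receptors and ligands, 3 rose and 3 fell with the block. Adcyap1 encodes PACAP, the ligand of the Adcyap1r1 receptor, and gave 368, 447, 351 and 426 in Nestin-positive cells and 117, 189 and 279 in Nestin-negative cells, without overlap. It rose by 1.05 ± 0.19 (SE) on the log2 scale with the block (limma, adjusted p = 0.00075; 0.0937 without it), and a second probe set rose too (1.08 ± 0.21 SE). Calcrl (0.96 ± 0.18 SE), a receptor subunit for adrenomedullin and CGRP, and Cxcr4 (0.58 ± 0.10 SE), the Gi-coupled receptor of Cxcl12, rose. Gabbr1, a subunit of the Gi-coupled GABA-B receptor (-0.70 ± 0.11 SE), Gnao1 (-0.49 ± 0.12 SE, with -0.31 ± 0.28 in its second probe set) and the inhibitory alpha subunit Gnai1 (-0.40 ± 0.11 SE, adjusted p = 0.0208; 0.128 without pair 1) fell.

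Among 11 genes that move Gpr161 into or out of the cilium, Tulp3, the adaptor that brings it there, had 0.50 ± 0.13 with the block (SE; limma, adjusted p = 0.0167; 0.244 without pair 1), and its second probe set -0.07 ± 0.24. Wdr35, of the IFT-A complex that works with Tulp3, had 0.41 ± 0.12 (SE, adjusted p = 0.0294; 0.111 without pair 1 and 0.150 without pair 5), and Arrb1, a beta-arrestin gene, -0.65 ± 0.17 (SE, adjusted p = 0.0171; 0.135 without pair 1). Of 11 A-kinase anchoring protein genes, Akap12 passed in both fits, with 1290, 1026, 1275 and 1479 against 2601, 2078 and 2414, and fell by 0.91 ± 0.15 (SE) on the log2 scale (limma, adjusted p = 0.0327; 0.0487 to 0.118 with any 1 array left out, past the threshold in 2 of those 7 fits). Of 11 relatives and partners of the casein kinase 1 and GSK3 genes, only the scaffold gene Apc passed with the block (-0.36 ± 0.10 SE, adjusted p = 0.0252; 0.208 without pair 1 and 0.0699 without pair 5), while its 3 other probe sets had -0.0082 to 0.28 in that fit.

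Among lists at the far end of the pathway, those of ubiquitin ligase, CREB and cAMP-responsive genes had no call, while 2 Hedgehog core genes rose. None of 9 genes of the ubiquitin ligases that act on Gli proteins passed in either limma fit, with Cul1 at 0.25 ± 0.11 and Fbxw11 at -0.16 ± 0.10 (SE, without the block; limma, 0 of the 9 at an unadjusted p under 0.05 in either fit). None of 9 CREB factor and coactivator genes passed, with Crem at 0.47 ± 0.22 and Crtc3 at -0.45 ± 0.22 (SE; limma, 0 at an unadjusted p under 0.05 without the block and 1 with it), nor of 9 genes known to respond to cAMP, with Per1 at -0.54 ± 0.23 and Junb at -0.49 ± 0.30 (SE; limma, 1 at an unadjusted p under 0.05 in each fit). Of 7 Hedgehog core genes, Hhip, a Hedgehog-binding antagonist that the pathway induces, rose in both fits (0.91 ± 0.14 SE with the block; without it adjusted p = 0.0403, and 0.0537 to 0.152 with any 1 array left out). Gli3, the Gli factor most often trimmed to a repressor after PKA phosphorylation, gave 555, 506, 422 and 503 against 239, 341 and 364 and rose with the block (0.66 ± 0.16 SE, adjusted p = 0.0112; 0.242 without pair 1).

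**Figure D4:**
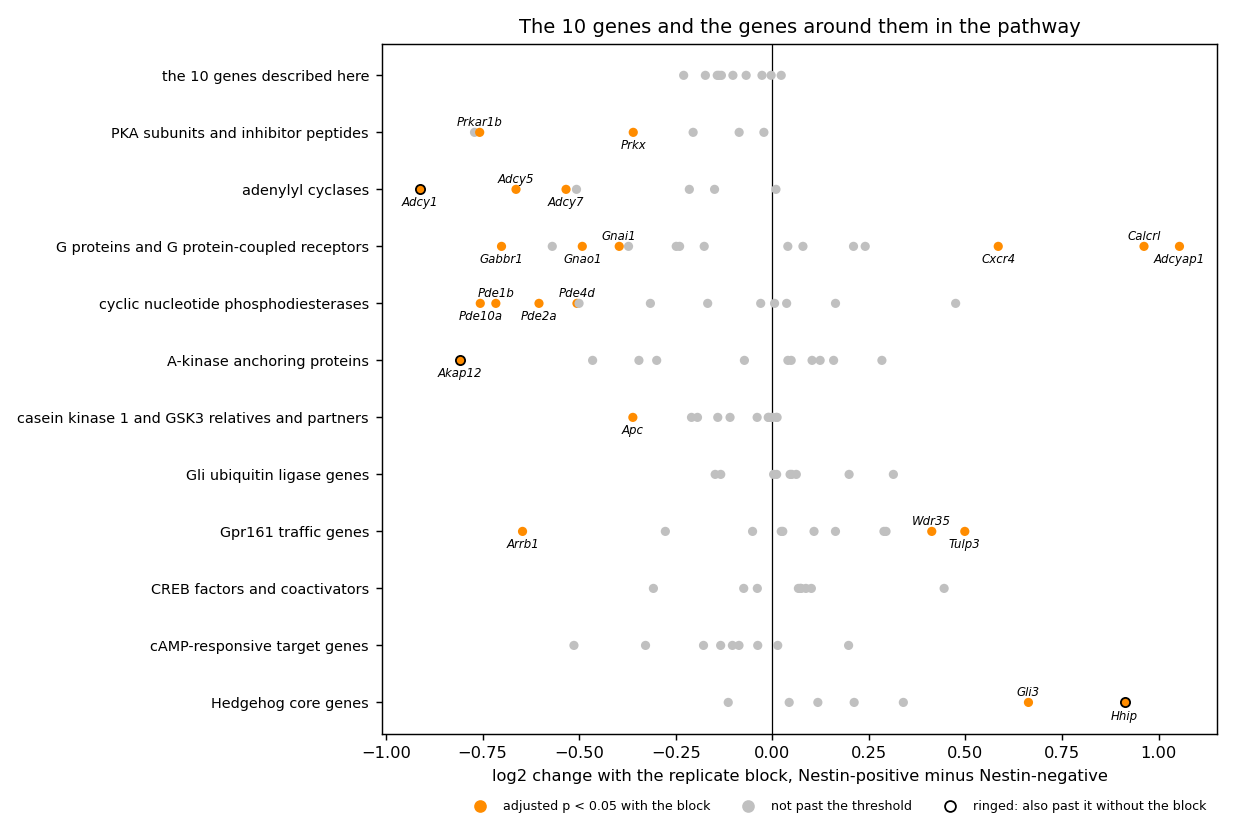
Log2 change with the replicate block for the 10 genes (top row) and for each tested gene of 11 pathway lists, 1 point per gene; orange points passed the adjusted threshold of 0.05 with the block, and ringed points also passed without it. The 10 genes lie between -0.23 and 0.02 with no call, and the points farthest from 0 are Adcy1, Akap12, Hhip, Calcrl and Adcyap1.

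Some marker genes of other states and cell types also differed between the fractions. The summed signal of 12 markers of differentiating granule neurons was 54151 to 64768 on Nestin-positive and 76589 to 83857 on Nestin-negative arrays, with 11 of the 12 at or above the array median on all arrays and Gabra6 below it on all. That of 11 genes of G2 and mitosis was 42765 to 46843 and 29020 to 35877. The sum of 11 microglia markers was 321 to 1160 and 2140 to 8262, with 8 of them reaching the array median throughout the Nestin-negative fraction and 0 throughout the Nestin-positive one. With the block 9 of 9 tested microglia markers were called lower, where 6.52% of all genes were called lower and 3.60% higher. Of these markers, Lyz2 and C1qc reached the array median on Nestin-negative arrays only, so the filter fixed their direction in advance. Sums for pericytes were 620 to 2084 and 1378 to 9633 (Tagln and Myh11 below the median on all arrays), and those for meningeal fibroblasts 3713 to 5923 and 5539 to 12144. Both were lower in the Nestin-positive array of all 3 pairs, and with the block 7 of 8 tested pericyte markers and 5 of 6 tested fibroblast markers were called lower. Pdgfra made up most of the fibroblast sum on Nestin-positive arrays (2752 to 3234, against 3321 to 3916 on Nestin-negative ones). It was the tested fibroblast marker not called (-0.17 ± 0.10 SE with the block; limma, adjusted p = 0.374). The endothelial sum, 408 to 1757 and 582 to 1853 (Pecam1 and Abcb1a below the median on all arrays), was also lower in all 3 pairs, with 1 of 7 tested markers called lower. Sums overlapped for astrocytes (9956 to 30534 and 7635 to 21454) and the oligodendrocyte lineage (3182 to 4538 and 3728 to 4336, with Mog below the median on all arrays). Single markers of both lists were called in both directions with the block. Of 10 tested astrocyte markers 4 were lower and 2 higher, and of 4 tested oligodendrocyte markers 1 was lower and 2 higher. GABAergic interneuron markers summed to 3123 to 4099 and 4585 to 5724, most of it from Lhx1 (2649 to 3494 and 3490 to 4821), with Slc32a1 below the median on all arrays. Gad1, the defining enzyme of GABA synthesis, was at 0.952, 43.2, 59.9 and 67.4 in Nestin-positive and 269, 434 and 399 in Nestin-negative cells. Tfap2b was lower too (3.32 to 86.6 and 108 to 287), while Pvalb was higher in all 3 pairs (302 to 673 and 382 to 408). Their part in the calls of Adcy1, Prkar1b, Adcyap1 and the other pathway genes was not tested, and in sorted bulk samples fewer cells of a type and less RNA per cell cannot be told apart.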

How the data were processed

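Per the labels' protocols and the series text, Trizol-extracted total RNA of the sorted fractions was biotinylated and read on single-channel Affymetrix Mouse Genome 430 2.0 arrays. The authors deposited MAS5 signal, a linear intensity, per the submitters' processing notes; the sources used here do not name a version. Every array had a 2% trimmed mean of 500, so arrays were scaled, and nothing else was seen to align them. Because MAS5 takes mismatch probes off the signal, dim values are noisy; detection calls were not used here, and the array median served as the limit.

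Of 45101 probe sets, 64 controls were left out; 34945 had 1 gene (34741 matched by Entrez ID to RefSeq symbols of GRCm38.p6, used for names alone and promoter windows), 932 several and 9160 none. The log2 values, without a pseudocount, of probe sets at or above the array median on at least 3 arrays were kept (20144 with 1 gene), and the brightest stood for its gene (11081 genes). Every p-value came from limma 3.58.1 under R 4.3.3 (two-sided moderated test with an intensity trend, Benjamini-Hochberg over all genes); the steps were tested on simulated data. Fits of single probe sets adjust over 20144.

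Deviations of same-numbered arrays correlated with r = 0.393 to 0.705 across genes, which are not independent replicates, and other pairs with -0.599 to 0.185. Same-numbered samples were therefore treated as pairs, on the basis of this correlation, since the labels do not state it. The blocked fit has 2 residual degrees of freedom per gene and 20.1 after moderation.

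The members, gene lists and tests were chosen with earlier results of these data known. Named genes are the 10 members with all their probe sets and, of each pathway list, the genes past the threshold in either fit, otherwise the 2 with the smallest p. Alternatives covered normalization, the filter, a pseudocount of 32, the probe set rule, the variance trend, the block and each array left out. Quantile normalization and the mean of probe sets, each with the block, were added after seeing the data.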

Additional observations from a re-analysis of the deposited data

How the results depend on the processing

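Over 20 alternatives, 0 of 200 values of the 10 genes passed the threshold, and Prkaca, Gsk3b and Csnk1e kept a negative sign in all of them. Not all alternatives could turn a sign. Those of the filter, the variance trend and single probe sets left the log2 changes of the 10 genes as they were. Leaving out Nestin-positive replicate 3 gave the same log2 changes as the block. The count of called brake genes stayed 0 throughout. The other 7 genes changed sign under at least 1: Prkacb (0.13), Prkar2b (0.041) and Gnas (0.13) with the mean of probe sets; Gpr161 with quantile normalization (-0.00088); Csnk1a1 with the replicate block (-0.0031); and, with both the block and the mean of probe sets, Prkacb (0.17), Gnas (0.12) and Csnk1a1 (-0.016). With the replicate block and 1 pair left out, the sign turned for Prkacb (0.054 without pair 1 and 0.0215 without pair 4), Prkar1a (0.013 without pair 1), Gpr161 (-0.053 without pair 4) and Csnk1a1 (-0.062 without pair 1 and -0.056 without pair 5). With each array left out, values ran from -0.12 to 0.12 for Prkacb, -0.14 to 0.045 for Prkar1a, -0.035 to 0.032 for Gpr161, -0.36 to 0.29 for Adcyap1r1 and -0.060 to 0.12 for Csnk1a1.

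Over all genes, 83 were called (19 higher, 64 lower) and 3 of the pathway lists. The replicate block gave 1122 and 22, and 727 to 1449 and 13 to 23 with 1 pair left out (909 and 19 without pair 5). Quantile normalization gave 22 and 1, no filter 52 and 1, the mean of probe sets 43 and 1, each probe set as its own feature 0 and 0 (2232 and 44 at an unadjusted p under 0.05) and limma without the variance trend 0 and 0 (1573 and 27 unadjusted). With each array left out the counts were 0 to 97 and 0 to 1. Quantile normalization with the block gave 818 and 18, and the mean of probe sets with the block 963 and 15. The unblocked pathway calls are thus fragile, and dim probe sets limit what can be said of secondary transcripts.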

Other observations

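The genes whose profile over the 7 arrays lay closest to Csnk1e and Prkaca, the members with the smallest unblocked p, were found by the root mean square difference of log2 values centred on each gene's mean. For Csnk1e these were Ddah2 (0.021), Dctn2 (0.036) and Snx17 (0.042), where Csnk1e itself varied by 0.25 around its mean. For Prkaca they were Trmt61a (0.056), Slc25a53 (0.061) and Fdps (0.062), where Prkaca varied by 0.20. The closest of 11081 profiles are close in any case, and none of this was tested.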
